A study of Mus musculus with 9 samples.

Results

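The AP-1 and immediate early genes described here are Fos, Fosb, Fosl1, Fosl2, Jun, Junb, Jund, Egr1, Atf3 and Zfp36, taken by symbol from a table of 35315 genes measured in mouse colon. The 10 genes were each found once. Of these, 8 reached the level needed for a test, 1 FPKM or more in 3 or more libraries (FPKM counts fragments after correction for transcript length and library size), and Fosb and Fosl1 did not.

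Total RNA from the colon of 8-week-old wild-type C57BL/6J mice was sequenced in 3 groups of 3 libraries. The GsMTx4 group drank 2.5% dextran sulfate sodium (DSS) for 7 days and was given GsMTx4 intravenously at 10 mg/kg on days 2, 4 and 6. The DSS group drank the same solution and was injected with solvent on those days. The Control group drank normal water, and the labels give no injection for it. DSS, a sulfated polymer, damages the lining of the colon and causes colitis, and GsMTx4, a peptide from spider venom, blocks mechanically gated cation channels such as Piezo1. Nothing in the labels says that each library is a different mouse, so p-values measure the spread between these libraries.

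AP-1 is a pair of proteins joined through leucine zippers, usually one of the Fos family (Fos, Fosb, Fosl1, Fosl2) with one of the Jun family (Jun, Junb, Jund), and it binds DNA to switch genes on or off. Growth factors, cytokines and stress act through MAP kinases to induce most of these genes within minutes, without new protein synthesis, and the mRNAs are short-lived. Egr1 and Atf3 encode transcription factors of the same early response, and Zfp36 encodes tristetraprolin, a protein that binds AU-rich elements and speeds the decay of cytokine mRNAs.

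The 9 libraries held about 15100000 to 21500000 read pairs, as inferred from low FPKM values of genes with 1 annotated transcript. Summed FPKM ran from 349125 to 440935, and 12830 to 14036 genes reached 1 FPKM. The 11 epithelial markers, Epcam, Cdh1 and Vil1 among them, passed the filter and summed to 4955 to 7278 FPKM in a library. Across the 14360 tested genes, the median log2 fold change was 0.07 for GsMTx4 against DSS, -0.17 for DSS against Control and -0.08 for GsMTx4 against Control. Median-of-ratios scaling moved the median for DSS against Control by 0.143, quantile normalization moved it by 0.111 and rescaling to TPM by -0.106. With these, the share of calls that were higher was 58.6%, 50.1% and 27.5%, against 37.4% without rescaling. TPM rescaling also moved the median for GsMTx4 against Control by -0.107. Below, levels are FPKM with means ± SD and n = 3 libraries per group, fold changes are on the log2(FPKM + 1) scale ± SE with 95% confidence intervals, and adjusted p-values are from limma with Benjamini-Hochberg adjustment across the tested genes.

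Junb and Zfp36 were higher in DSS than in Control colon and lower in GsMTx4 than in DSS colon, and no other tested member passed in either comparison. In GsMTx4 against DSS, 2 of 8 tested members fell and none rose, while over all tested genes 5.62% fell and 6.66% rose. In DSS against Control, 2 of 8 rose and none fell, while over all tested genes 6.41% rose and 10.7% fell. None passed in GsMTx4 against Control, where 0.237% of all tested genes did and where 1 member, Jun, had an unadjusted p under 0.05, beside 10.1% of all tested genes. In whole colon, more cells of a type and more RNA per cell cannot be told apart. The comparisons with DSS share the 3 DSS libraries, so a high or low DSS value enters both with opposite sign.

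**Figure D1:**
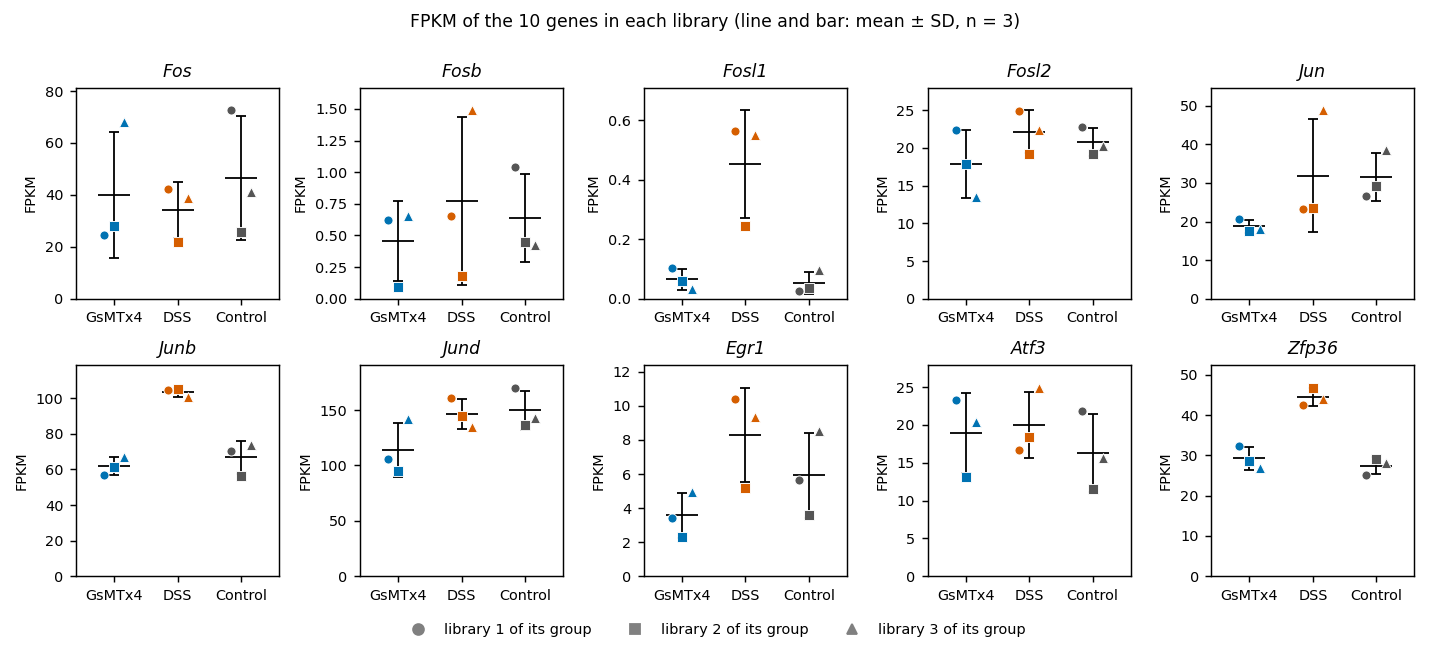
FPKM (vertical axes, each from 0) of the 10 genes in the GsMTx4, DSS and Control libraries, with marker shape for the library number and lines for mean ± SD (n = 3). The 3 DSS libraries sit above the other 6 for Junb (100.4 to 105.3 FPKM), Zfp36 (42.5 to 46.8 FPKM) and Fosl1, while for Fos the 3 groups overlap.

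Junb encodes a Jun family protein that can restrain as well as drive transcription, depending on its partner. It was at 57.1, 61.4 and 66.9 FPKM in the GsMTx4 libraries, at 104.3, 105.3 and 100.4 FPKM in the DSS libraries and at 70.3, 56.5 and 73.5 FPKM in the Control libraries. The DSS values lay within 5 FPKM of each other, above the other 6 libraries, while the GsMTx4 and Control values overlapped. Junb averaged 61.8 ± 4.89 FPKM in GsMTx4, 103.3 ± 2.56 FPKM in DSS and 66.8 ± 9.07 FPKM in Control.

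For GsMTx4 against DSS, the log2 fold change of Junb was -0.73 ± 0.14 (interval -1.05 to -0.42, adjusted p = 0.0137). For DSS against Control it was 0.63 ± 0.14 (interval 0.31 to 0.95, adjusted p = 0.0179). GsMTx4 and Control differed by -0.10 ± 0.14 (interval -0.42 to 0.22, adjusted p = 0.834). The call for GsMTx4 against DSS was lost by a narrow margin without GsMTx4 2 (-0.73, adjusted p = 0.05001) and with only the GsMTx4 and DSS groups in the fit (adjusted p = 0.051). The call for DSS against Control was lost without Control 2, the lowest Control library (0.52, adjusted p = 0.0844).

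Zfp36 followed the same order of groups. Its levels were 32.4, 28.7 and 26.9 FPKM in the GsMTx4 libraries, 42.5, 46.8 and 44.1 FPKM in the DSS libraries and 25.1, 29.2 and 28.1 FPKM in the Control libraries. Here too the 3 DSS libraries stood above the other 6, and GsMTx4 and Control overlapped. The means were 29.3 ± 2.84 FPKM in GsMTx4, 44.5 ± 2.20 FPKM in DSS and 27.5 ± 2.14 FPKM in Control.

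Zfp36 fell by 0.59 ± 0.13 on the log2 scale in GsMTx4 against DSS (interval -0.87 to -0.30, adjusted p = 0.0194). In DSS against Control it rose by 0.68 ± 0.13 (interval 0.39 to 0.96, adjusted p = 0.00867), a call that held under the 18 alternatives tried, with adjusted p between 0.00638 and 0.0434. GsMTx4 and Control differed by 0.09 ± 0.13 (interval -0.19 to 0.37, adjusted p = 0.836). The fall in GsMTx4 against DSS was less secure, since its adjusted p was 0.0678 without GsMTx4 2, 0.057 after TPM rescaling and 0.0811 with only the GsMTx4 and DSS groups in the fit.

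Upstream sequence (RefSeq, GRCm38.p6) is shown for Junb and Zfp36 because these 2 members changed together, and for Fos because its promoter is the textbook example of early induction. The 250 bases before the RefSeq start were searched on both strands for the cyclic AMP response element TGACGTCA and its core TGACG, the AP-1 site TGACTCA, the CArG box bound by serum response factor, the EGR site GCGTGGGCG or GCGGGGGCG, and the TATA box TATAAA. The core is contained in the full element. Capitals mark the matches. The Junb stretch is chr8:84978749-84978998 on the minus strand and the Fos stretch chr12:85473640-85473889 on the plus strand. For Zfp36 the 30 bases around the CArG box are given, chr7:28379267-28379296 on the minus strand, since its window lies in the leading exon of the longer of 2 GENCODE transcripts. The RefSeq start of Junb lies 30 bases upstream of the GENCODE start, that of Fos coincides with it, and that of Zfp36 lies 27 bases downstream of the start of the shorter transcript and 1025 bases downstream of that of the longer.
Junb promoter: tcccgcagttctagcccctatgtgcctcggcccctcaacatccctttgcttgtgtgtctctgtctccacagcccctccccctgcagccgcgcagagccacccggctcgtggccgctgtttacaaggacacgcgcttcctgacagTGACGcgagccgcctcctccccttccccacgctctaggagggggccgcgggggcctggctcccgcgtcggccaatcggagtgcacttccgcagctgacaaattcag
Zfp36 CArG box: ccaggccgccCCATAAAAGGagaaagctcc
Fos promoter: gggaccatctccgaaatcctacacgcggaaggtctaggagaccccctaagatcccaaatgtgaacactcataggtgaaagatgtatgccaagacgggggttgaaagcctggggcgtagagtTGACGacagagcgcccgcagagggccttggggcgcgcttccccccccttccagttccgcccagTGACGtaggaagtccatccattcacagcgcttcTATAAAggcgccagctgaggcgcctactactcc

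The Zfp36 window holds a CArG box 58 to 49 bases before the start and an EGR site 105 to 97 bases before it. In the Junb stretch the single match is a TGACG core at 106 to 102 bases before the start. The Fos stretch holds cores of this element at 129 to 125 and 66 to 62 bases and a TATA box at 33 to 28 bases before the start. Among the 8 members with a RefSeq promoter, Zfp36 alone had a CArG box in this window. Zfp36, Fosb and Fosl2 had an EGR site, and Fos, Fosb, Junb and Atf3 had a TGACG core. The Fosl2 start used lies 299 bases downstream of the nearest GENCODE start. That of Atf3 lies 7 bases downstream of the nearest and 34706 bases downstream of the first. The Jund start used lies well upstream of its GENCODE start, so its window does not adjoin that start. The counts describe the windows searched, and a site near another start would be missed. Of the 32851 mouse promoters of the same length, 1.47% hold the CArG box, 3.06% the EGR site, 17.8% the core and 12.4% the TATA box. The full cyclic AMP response element (1.55% of promoters) and the AP-1 site (4.46%) were in none of the 8. These are matches of letters in a short window and no measure of binding. Sequence further upstream was not searched, so a member without a match here, Fos included, may hold the site outside the window. The promoters of Egr1 and Fosl1 were not searched.

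Among the other Jun genes, Jun encodes c-Jun, the main activator of the family, and Jund encodes the member that is expressed steadily in most tissues. Jun was at 20.7, 17.5 and 17.95 FPKM in the GsMTx4 libraries, at 23.2, 23.6 and 48.9 FPKM in the DSS libraries and at 26.6, 29.2 and 38.4 FPKM in the Control libraries. The 3 GsMTx4 libraries lay below the other 6, while DSS 3 was about double the other DSS libraries. Jun averaged 18.7 ± 1.70 FPKM in GsMTx4, 31.9 ± 14.7 FPKM in DSS and 31.4 ± 6.21 FPKM in Control.

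The lower level of Jun in GsMTx4 did not pass after adjustment. Its log2 fold change was -0.65 ± 0.27 against DSS (interval -1.27 to -0.04, unadjusted p = 0.0396, adjusted p = 0.144) and -0.70 ± 0.27 against Control (interval -1.32 to -0.09, unadjusted p = 0.0293, adjusted p = 0.43). For DSS against Control it was -0.05 ± 0.27 (adjusted p = 0.908).

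Jund was the most abundant of the 10 genes in the 3 groups. It was at 105.6, 95.4 and 141.9 FPKM in the GsMTx4 libraries, at 161.2, 144.3 and 134.5 FPKM in the DSS libraries and at 170.2, 136.5 and 142.5 FPKM in the Control libraries. GsMTx4 3 overlapped the DSS and Control libraries, and GsMTx4 1 and 2 lay below them. The log2 fold change was -0.37 ± 0.18 for GsMTx4 against DSS (adjusted p = 0.204), -0.03 ± 0.18 for DSS against Control (adjusted p = 0.927) and -0.40 ± 0.18 for GsMTx4 against Control (adjusted p = 0.503).

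FPKM is divided by transcript length, so the Jun genes can be expressed as shares of their sum, which do not depend on how libraries are scaled. Junb made up 32.0 ± 2.96% of the summed Jun family FPKM in GsMTx4 (29.5 to 35.2%), 36.7 ± 1.64% in DSS (35.4 to 38.5%) and 26.9 ± 1.81% in Control (25.4 to 28.9%). The ranges of the 3 groups did not overlap, although the highest GsMTx4 library and the lowest DSS library were nearly level. Jund held 58.3 ± 3.99% in GsMTx4, 52.0 ± 4.28% in DSS and 60.4 ± 3.97% in Control, and Jun held 9.75 ± 1.70%, 11.3 ± 5.14% and 12.7 ± 2.595% in the same order of groups. The ratio of Junb to Jun was 2.76, 3.50 and 3.72 in the GsMTx4 libraries, 4.50, 4.46 and 2.06 in the DSS libraries and 2.64, 1.93 and 1.91 in the Control libraries. DSS 3, with its high Jun, had a ratio like that of the Control libraries, so the groups overlapped on this measure. No p-value was computed for these shares and ratios.

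**Figure D2:**
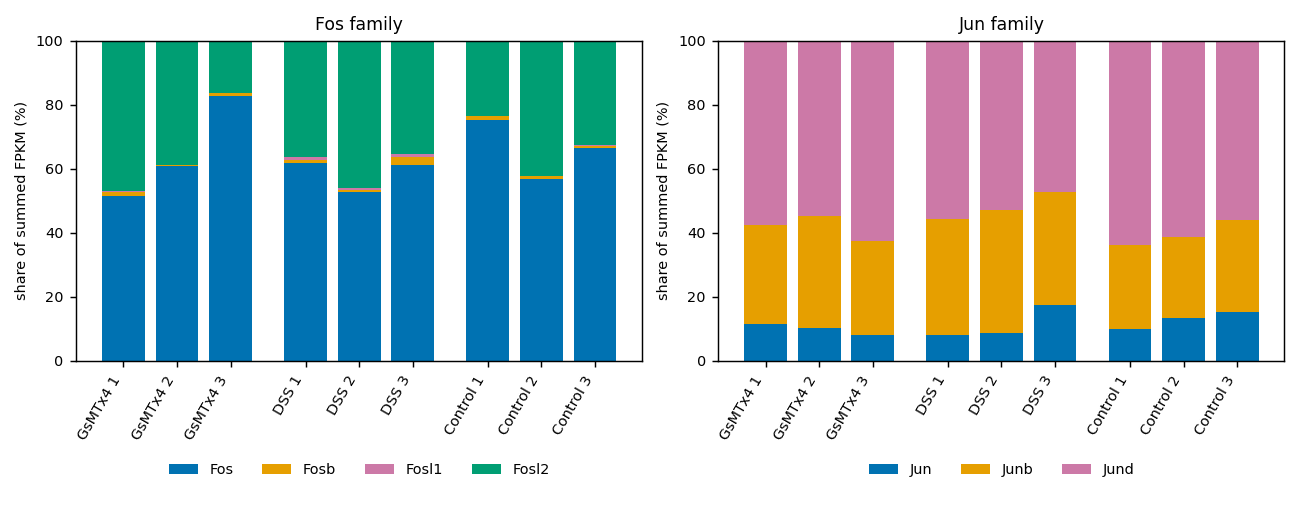
Share of each gene in the summed FPKM of the Fos family (left) and the Jun family (right), in percent, with 1 bar per library. Junb takes 29.5 to 35.2% of the Jun family in GsMTx4, 35.4 to 38.5% in DSS and 25.4 to 28.9% in Control, while Fos and Fosl2 together make up nearly the whole Fos family in each library.

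Fos encodes c-Fos, the prototype immediate early gene, and Fosl2 encodes Fra-2, a longer-lived Fos family protein. Fos was at 24.4, 27.9 and 68.1 FPKM in the GsMTx4 libraries, at 42.1, 21.95 and 38.6 FPKM in the DSS libraries and at 72.6, 25.8 and 41.1 FPKM in the Control libraries. The spread within a group was wider than any difference between groups: the highest library exceeded the lowest 2.79-fold in GsMTx4, 1.92-fold in DSS and 2.81-fold in Control. The group means were 40.1 ± 24.3 FPKM in GsMTx4, 34.2 ± 10.8 FPKM in DSS and 46.5 ± 23.9 FPKM in Control.

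The log2 fold change of Fos was 0.12 ± 0.46 for GsMTx4 against DSS (interval -0.92 to 1.17, adjusted p = 0.883). It was -0.36 ± 0.46 for DSS against Control (interval -1.40 to 0.68, adjusted p = 0.594) and -0.24 ± 0.46 for GsMTx4 against Control (interval -1.28 to 0.80, adjusted p = 0.89). At this spread the intervals are wide, and differences of Fos of either sign within them are compatible with these libraries.

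Fosl2 had the narrower spread of the pair. It was at 22.4, 17.8 and 13.5 FPKM in the GsMTx4 libraries, at 24.9, 19.2 and 22.4 FPKM in the DSS libraries and at 22.8, 19.2 and 20.3 FPKM in the Control libraries. The 3 groups overlapped, with GsMTx4 3 the lowest of the 9. The log2 fold change was -0.31 ± 0.19 for GsMTx4 against DSS (interval -0.73 to 0.11, adjusted p = 0.292) and 0.09 ± 0.19 for DSS against Control (interval -0.33 to 0.51, adjusted p = 0.76).

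The remaining pair of Fos family genes was scarce in bulk colon. Fosb, best known from neurons, was at 0.625, 0.0889 and 0.650 FPKM in the GsMTx4 libraries, at 0.655, 0.178 and 1.49 FPKM in the DSS libraries and at 1.04, 0.451 and 0.427 FPKM in the Control libraries. The 3 groups overlapped, and the spread within DSS was 8.37-fold.

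Fosl1 encodes Fra-1, a Fos family protein linked to wound closure and cell migration. It was at 0.104, 0.0597 and 0.0327 FPKM in the GsMTx4 libraries, at 0.564, 0.245 and 0.551 FPKM in the DSS libraries and at 0.0275, 0.0374 and 0.0953 FPKM in the Control libraries. The 3 DSS libraries lay above the other 6, whose values were near those of single read pairs. Depending on which of its 3 transcripts was counted, these values correspond to 0.6 to 3.3, 0.3 to 1.7 and 0.2 to 0.9 read pairs in the GsMTx4 libraries, to 4.2 to 21.8, 1.9 to 9.8 and 3.4 to 17.6 read pairs in the DSS libraries and to 0.2 to 1.0, 0.3 to 1.5 and 0.7 to 3.7 read pairs in the Control libraries.

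Fosl1 missed the filter for testing. When limma was run without the filter, on 33133 genes, its difference on the log2(FPKM + 1) scale was -0.44 ± 0.09 for GsMTx4 against DSS (adjusted p = 0.0379), 0.46 ± 0.09 for DSS against Control (adjusted p = 0.0266) and 0.02 ± 0.09 for GsMTx4 against Control (adjusted p = 1.0). At levels under 1 FPKM the added 1 makes these differences much smaller than the ratio of the levels. In the same fit Fosb differed by -0.25 ± 0.30 for GsMTx4 against DSS (adjusted p = 0.716) and by 0.07 ± 0.30 for DSS against Control (adjusted p = 0.95).

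Egr1 encodes a zinc finger factor induced through serum response factor and its Ets partners. It was at 3.42, 2.31 and 4.97 FPKM in the GsMTx4 libraries, at 10.4, 5.17 and 9.34 FPKM in the DSS libraries and at 5.68, 3.59 and 8.55 FPKM in the Control libraries. The GsMTx4 libraries lay below the DSS libraries, the nearest pair being GsMTx4 3 and DSS 2, and Control overlapped both. The means were 3.57 ± 1.34 FPKM in GsMTx4, 8.30 ± 2.77 FPKM in DSS and 5.94 ± 2.49 FPKM in Control.

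The fitted difference of Egr1 for GsMTx4 against DSS, -1.02 ± 0.33 (interval -1.77 to -0.27), was the largest in size among the tested members, with an unadjusted p of 0.0131 and an adjusted p of 0.0767. It passed without DSS 2, the lowest DSS library (-1.29 ± 0.33, adjusted p = 0.0485). For DSS against Control the log2 fold change was 0.44 ± 0.33 (adjusted p = 0.366), and for GsMTx4 against Control it was -0.58 ± 0.33 (adjusted p = 0.586). The ratio of Fos to Egr1 was 7.15, 12.04 and 13.7 in the GsMTx4 libraries, 4.05, 4.25 and 4.14 in the DSS libraries and 12.8, 7.20 and 4.81 in the Control libraries. Each DSS library thus had a lower ratio than any of the other 6, with little spread between the 3, although Fos itself varied 1.92-fold among them. The gap was narrow, from 4.25 in DSS 2 to 4.81 in Control 3. No p-value was computed for this ratio, and how many other gene pairs separate in this way was not counted.

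Atf3 encodes a stress-induced factor that pairs with Jun proteins and often represses inflammatory genes. It was at 23.4, 13.1 and 20.4 FPKM in the GsMTx4 libraries, at 16.7, 18.4 and 24.9 FPKM in the DSS libraries and at 21.8, 11.5 and 15.6 FPKM in the Control libraries. The groups overlapped, and the log2 fold change was -0.09 ± 0.27 for GsMTx4 against DSS (adjusted p = 0.852) and 0.30 ± 0.27 for DSS against Control (interval -0.31 to 0.92, adjusted p = 0.444).

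**Figure D3:**
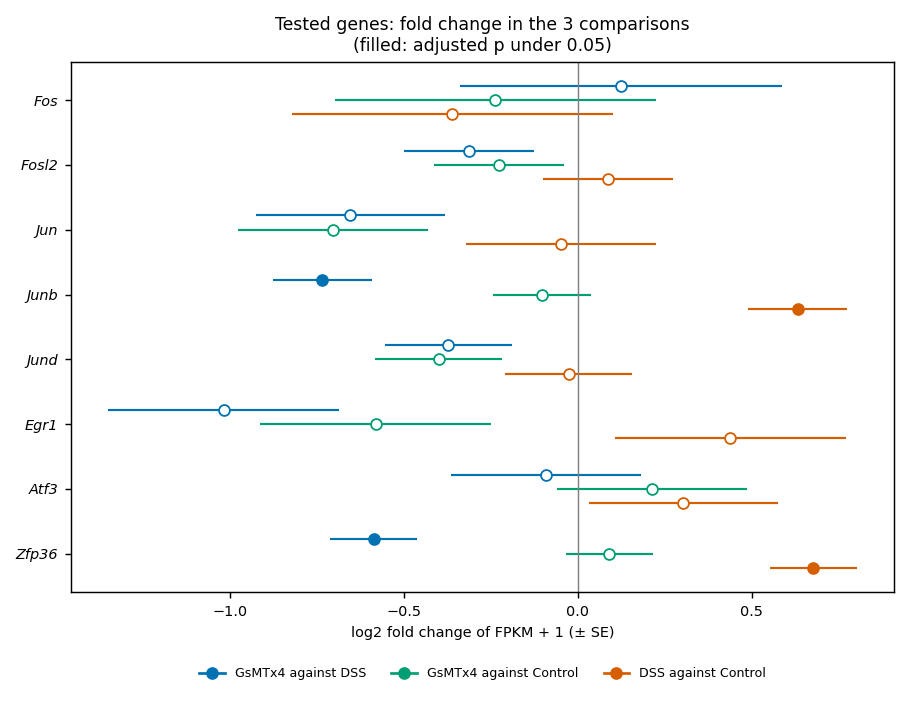
Log2 fold change ± SE on the log2(FPKM + 1) scale (horizontal axis) of the 8 tested genes in the 3 comparisons, with filled points at an adjusted p under 0.05 in limma. Junb and Zfp36 have the filled points, at -0.73 and -0.59 for GsMTx4 against DSS and at 0.63 and 0.68 for DSS against Control, and Egr1 lies at -1.02 for GsMTx4 against DSS with a wide bar.

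Over the 8 tested members, 7 fitted differences were below 0 in GsMTx4 against DSS, with a median of -0.48, beside 0.07 over all tested genes. For Jun, Junb, Egr1 and Zfp36 the GsMTx4 and DSS libraries did not overlap, with GsMTx4 the lower, as for 12.8% of all tested genes. In DSS against Control the median was 0.20, beside -0.17 over all tested genes, and 2 members had DSS libraries above the Control libraries without overlap, as for 13.5% of all tested genes. GsMTx4 against Control gave a median of -0.23, beside -0.08, and Jun was the 1 tested member without overlap, lower in GsMTx4, as for 14.6% of all tested genes.

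Ordered by mean FPKM, Jund and Junb came first and second and Egr1, Fosb and Fosl1 came last in the 3 groups. The Jund range lay above the Junb range in each group. Fos came next in GsMTx4 and Control, where its range overlapped those of Junb and Zfp36 and, in Control, that of Jun. In DSS, Zfp36 followed Junb, its lowest library at 42.5 FPKM just above the highest Fos library at 42.1 FPKM, and Fos and Jun overlapped. Jun, Fosl2 and Atf3 occupied the middle of the order in GsMTx4 and DSS and overlapped there. In Control, Fosl2 and Atf3 overlapped, and the Fosl2 range lay below those of Jun and Zfp36. Fosb and Fosl1 overlapped in GsMTx4 and DSS, and in Control the Fosb range lay above that of Fosl1.

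Libraries of a group differed from each other in several members at once. Control 2 was the lowest of its group for 6 of the 10 genes (Fos, Fosl2, Junb, Jund, Egr1 and Atf3) and the highest for Zfp36 alone. GsMTx4 2 was the lowest of its group for 5 genes and the highest for none, and DSS 2 was the lowest for 5, among them the 4 Fos family genes. GsMTx4 3 was the highest of its group for Fos, Fosb, Junb, Jund and Egr1 and the lowest for Fosl1, Fosl2 and Zfp36. Fos had the largest deviations from its group mean, at 0.90 in GsMTx4 3, 0.75 in Control 1 and -0.70 in Control 2 on the log2(FPKM + 1) scale. In the same 3 libraries Zfp36 deviated by -0.12, -0.12 and 0.09.

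**Figure D4:**
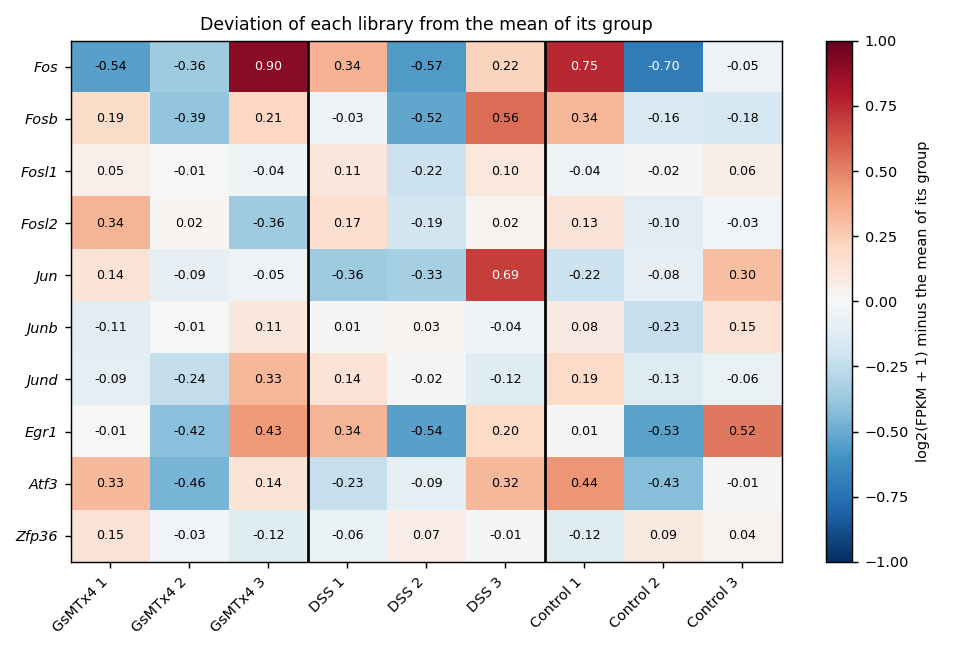
Difference of each library from the mean of its group in log2(FPKM + 1), with the 10 genes as rows and the GsMTx4, DSS and Control libraries as columns. Fos runs from -0.70 in Control 2 to 0.90 in GsMTx4 3, Jun reaches 0.69 in DSS 3, and Zfp36 stays between -0.12 and 0.15.

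In likeness of pattern over the 9 libraries, the genes nearest to Junb were Gcsam, Sccpdh and Rtn4, with root-mean-square differences of 0.099, 0.113 and 0.124 on the log2(FPKM + 1) scale after each gene was centred on its mean. The median distance from Junb over all tested genes was 0.467. The search covered tested genes, and Gcsam reached 1 FPKM in the DSS libraries alone. It entered the search through the group where it was high, so its likeness to Junb partly follows from the filter. The added 1 shrinks differences of low genes: Gcsam averaged 0.38 ± 0.15 FPKM in GsMTx4, 1.27 ± 0.07 FPKM in DSS and 0.40 ± 0.09 FPKM in Control, and Sccpdh 0.90 ± 0.13, 2.14 ± 0.32 and 1.11 ± 0.14 FPKM, so their levels differed more between groups, as ratios, than those of Junb. Rtn4, which encodes an endoplasmic reticulum protein, averaged 9.26 ± 0.59 FPKM in GsMTx4, 16.9 ± 1.88 FPKM in DSS and 10.8 ± 0.74 FPKM in Control. The genes nearest to Zfp36 were Gng2, Ccdc69 and Cers2, at 0.064, 0.076 and 0.076, against a median of 0.446, and Ccdc69 was low as well (1.55 ± 0.33 FPKM in GsMTx4, 2.71 ± 0.07 FPKM in DSS and 1.40 ± 0.03 FPKM in Control). Cers2, a ceramide synthase, averaged 21.2 ± 2.57 FPKM in GsMTx4, 33.2 ± 1.23 FPKM in DSS and 19.8 ± 0.88 FPKM in Control. Junb and Zfp36 were 0.196 apart.

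Over all tested genes, 5.62% fell and 6.66% rose in GsMTx4 against DSS, with a median of 0.07. In DSS against Control, 6.41% rose and 10.7% fell, with a median of -0.17. These are the values to set beside the lists and markers below. Outside the 10 genes, 26 other immediate early genes were listed, 20 of them tested. In GsMTx4 against DSS, 9 fell and none rose, with a median of -0.58. DSS against Control gave 5 rises and no fall (1 fall when DSS 1 or DSS 3 was left out), with a median of 0.34. Klf10, a zinc finger factor induced by TGF-beta, had log2 fold changes of -1.24 ± 0.21 for GsMTx4 against DSS (adjusted p = 0.00798) and 1.54 ± 0.21 for DSS against Control (adjusted p = 0.00243). Ier5 fell by 1.004 ± 0.15 in GsMTx4 against DSS (adjusted p = 0.00551) and rose by 0.74 ± 0.15 in DSS against Control (adjusted p = 0.0119), the rise being lost without Control 2 (adjusted p = 0.0576). Ier3, Gem and Ier5l also rose in DSS, by 1.37, 1.69 and 0.78, and the rise of Ier5l was lost without any 1 of Control 1, Control 2, Control 3, DSS 2 or DSS 3 (adjusted p = 0.0549 to 0.0995) and without the filter on low values (adjusted p = 0.0855).

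Sgk1, a serum- and glucocorticoid-regulated kinase, and Nfil3, a bZIP repressor, fell in GsMTx4 against DSS by 2.16 ± 0.33 and 1.36 ± 0.26 (adjusted p = 0.0058 and 0.0127). Sgk1 averaged 3.44 ± 0.28 FPKM in GsMTx4, 20.2 ± 8.48 FPKM in DSS and 17.3 ± 6.37 FPKM in Control. Its difference between GsMTx4 and Control, -1.99 ± 0.33, had an adjusted p of 0.0677, and it passed without DSS 3 (0.0178), after TPM rescaling (0.0395) and with only the GsMTx4 and Control groups in the fit (0.0417). The count of 9 fell to 5 without GsMTx4 2, and the count of 5 to 3 without Control 2.

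The 13 other bZIP genes whose products can pair with Fos or Jun proteins were tested. In GsMTx4 against DSS, Jdp2, which encodes a repressor that pairs with Jun, and Maf, a factor of macrophages and T cells, fell by 1.06 ± 0.20 and 0.88 ± 0.18 (adjusted p = 0.0135 and 0.0153). Jdp2 and Batf, a lymphocyte AP-1 factor, rose in DSS against Control by 0.79 ± 0.20 and 0.69 ± 0.19 (adjusted p = 0.0303 and 0.0354). Jdp2 and Maf lost their fall without GsMTx4 2 (adjusted p = 0.0532 and 0.0543), Maf also with only the GsMTx4 and DSS groups in the fit (adjusted p = 0.051). Batf lost its rise without any 1 Control or DSS library (adjusted p = 0.0608 to 0.125), and Jdp2 without any 1 Control library, DSS 2 or DSS 3 (adjusted p = 0.0563 to 0.0972), and both without the filter on low values (adjusted p = 0.0815 for Batf and 0.0737 for Jdp2).

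The 21 kinases and transcription factors that switch these genes on were tested. In GsMTx4 against DSS, 1 rose and 1 fell, beside 6.66% and 5.62% of all tested genes. In DSS against Control, 1 rose and 2 fell, beside 6.41% and 10.7%. Map2k6, a kinase of the p38 branch, rose in GsMTx4 against DSS by 0.94 ± 0.16 (adjusted p = 0.00985) and fell in DSS against Control by 0.88 ± 0.16 (adjusted p = 0.00885), calls that no omitted library removed. Map2k1, which encodes MEK1, fell in DSS against Control by 0.45 ± 0.11 (adjusted p = 0.0283). Elk3, an Ets partner of serum response factor, fell in GsMTx4 against DSS by 0.72 ± 0.19 and rose in DSS against Control by 0.66 ± 0.19 (adjusted p = 0.0402 and 0.0431). The other 18 passed in neither comparison, and the list medians were 0.00 for GsMTx4 against DSS and -0.07 for DSS against Control. The Map2k1 call was lost without any 1 Control library, DSS 1 or DSS 3 (adjusted p = 0.0655 to 0.116), and with median-of-ratios scaling its log2 fold change was -0.28 (adjusted p = 0.275). The Elk3 fall was lost without any library but DSS 2 (adjusted p = 0.0526 to 0.132), and its rise without any 1 Control library, DSS 1, DSS 3 or GsMTx4 1 (adjusted p = 0.0529 to 0.128). Both Elk3 calls were also lost without the filter, after TPM rescaling and with only the compared groups in the fit (adjusted p = 0.057 to 0.114 for the fall and 0.0506 to 0.0959 for the rise).

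Feedback inhibitors of the pathway, 18 in number, are themselves mostly induced by MAP kinase signalling. In GsMTx4 against DSS, 5 fell: Dusp1, Dusp2 and Dusp6, which encode MAP kinase phosphatases, Spry4, an inhibitor of receptor tyrosine kinase signalling, and Zfp36l1, a relative of Zfp36. Their log2 fold changes were -1.44 ± 0.38, -1.21 ± 0.22, -0.89 ± 0.21, -1.03 ± 0.24 and -0.78 ± 0.20, and leaving out any 1 library left 2 or 3 of the list passing. Spry4, Dusp2 and Dusp7 rose in DSS against Control, by 1.03 ± 0.24, 0.88 ± 0.22 and 0.65 ± 0.17, and none was left without Control 2 or Control 3. Of these calls, the fall of Dusp2 (adjusted p = 0.011) was the 1 that held under the 17 alternatives in which it was tested. Zfp36l1 averaged 25.2 ± 0.85 FPKM in GsMTx4, 45.1 ± 13.1 FPKM in DSS and 34.0 ± 1.51 FPKM in Control, a level near that of Zfp36.

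Genes known as AP-1 targets numbered 13, with 11 tested. Plaur, the urokinase receptor, averaged 2.72 ± 0.38 FPKM in GsMTx4, 11.4 ± 3.83 FPKM in DSS and 1.61 ± 0.23 FPKM in Control. It fell by 1.70 ± 0.20 in GsMTx4 against DSS (adjusted p = 0.00269) and rose by 2.21 ± 0.20 in DSS against Control (adjusted p = 0.000663). Hbegf, an EGF receptor ligand, fell by 1.37 ± 0.24 and rose by 1.28 ± 0.24 in the same comparisons (adjusted p = 0.0107 and 0.00971). Mmp3, which encodes stromelysin-1, was at 4.47, 1.37 and 0.656 FPKM in the GsMTx4 libraries, at 5.84, 37.3 and 91.6 FPKM in the DSS libraries and at 0.335, 0.552 and 0.491 FPKM in the Control libraries. It rose by 4.31 ± 0.81 in DSS against Control (adjusted p = 0.00922) and fell by 3.38 ± 0.81 in GsMTx4 against DSS (adjusted p = 0.0293), the fall being lost when DSS 2, DSS 3, GsMTx4 2 or GsMTx4 3 was left out (adjusted p = 0.0677 to 0.0992), without the filter (0.085) and with only the GsMTx4 and DSS groups in the fit (0.081). The 11 tested genes had fitted differences below 0 in GsMTx4 against DSS, with a median of -0.64, and above 0 in DSS against Control, with a median of 1.04. The count of 3 rises became 5 without DSS 1.

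Of 13 mRNAs known as targets of the decay protein that Zfp36 encodes, 10 were tested. Cxcl1, a neutrophil chemokine, fell by 1.92 ± 0.31 in GsMTx4 against DSS (adjusted p = 0.00759) and rose by 2.53 ± 0.31 in DSS against Control (adjusted p = 0.0018). Ier3 fell by 0.95 ± 0.19 in GsMTx4 against DSS (adjusted p = 0.0167), a call lost without GsMTx4 2 (adjusted p = 0.0625) and with only the GsMTx4 and DSS groups in the fit (adjusted p = 0.0571). Cxcl2 rose by 2.46 ± 0.58 in DSS against Control (adjusted p = 0.0219), which was lost without any 1 Control library (adjusted p = 0.0603 to 0.0695) and without the filter (adjusted p = 0.0667). Tnf had the smallest p of the list between GsMTx4 and Control, 0.85 ± 0.36 higher in GsMTx4 with an adjusted p of 0.472. The counts of 3 rises and 2 falls became 6 rises without DSS 1 and 1 fall without GsMTx4 2. Outside DSS, Cxcl1 and Cxcl2 reached 1 FPKM in GsMTx4 1 alone, so both were tested through the group where they were high.

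**Figure D5:**
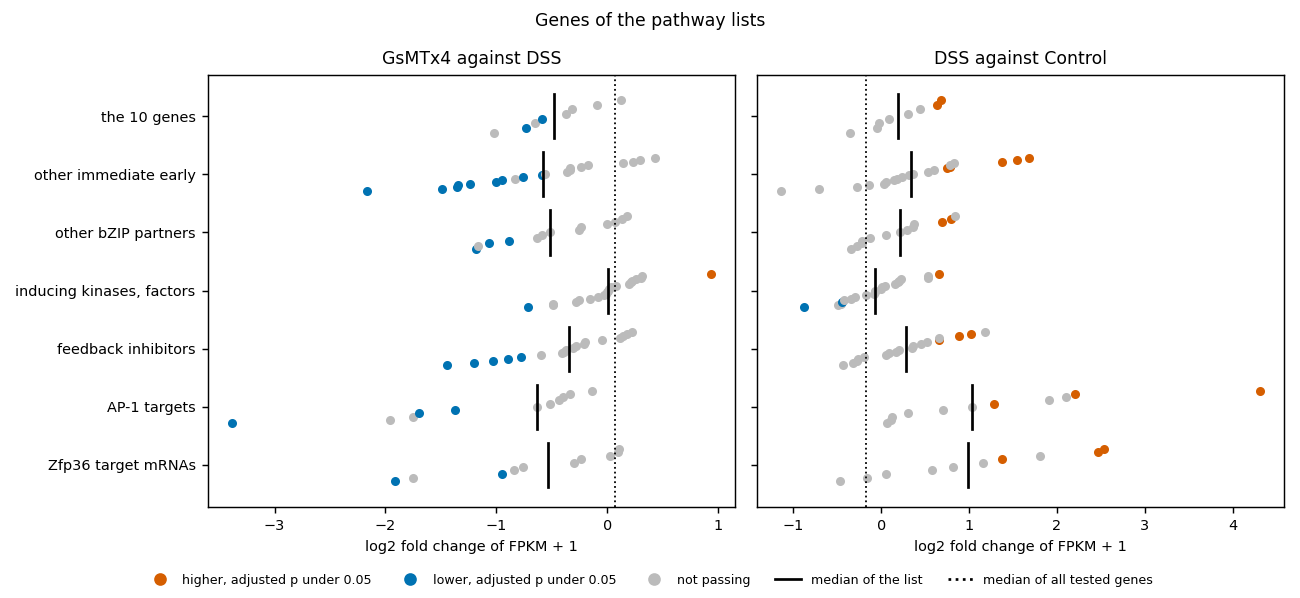
Log2 fold change on the log2(FPKM + 1) scale of each tested gene (points) of the 10 genes and the 6 pathway lists, for GsMTx4 against DSS (left) and DSS against Control (right), with passing genes in colour. List medians are thick lines and the median of all tested genes is dotted. Medians run from -0.64 to 0.00 on the left and from -0.07 to 1.04 on the right, and the inducing kinases and factors lie nearest the dotted lines.

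In GsMTx4 against Control, none of these 6 lists had a passing gene, and the smallest adjusted p was that of Sgk1. Without GsMTx4 3, 1 inducing kinase or factor was higher. At an unadjusted p under 0.05 there were 2 of 20 other immediate early genes, 3 of 13 bZIP partners, 2 of 21 inducing kinases and factors, 2 of 18 feedback inhibitors, 1 of 11 AP-1 targets and 1 of 10 Zfp36 targets, beside 10.1% of all tested genes.

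Among neutrophil, macrophage and fibroblast markers there were calls in both comparisons in which Junb and Zfp36 passed. Among endothelial markers there were calls in DSS against Control alone. The 9 neutrophil markers summed to 5.80 to 45.7 FPKM in the GsMTx4 libraries, 63.6 to 316.8 FPKM in the DSS libraries and 2.35 to 3.16 FPKM in the Control libraries, and of the 5 tested, 3 fell in GsMTx4 against DSS and 4 rose in DSS against Control. The 9 monocyte and macrophage markers summed to 532.8 to 674.1 FPKM in GsMTx4, 863 to 1102 FPKM in DSS and 472.7 to 569.2 FPKM in Control, with 2 falls and 4 rises. Lyz2 was the largest part of these sums, averaging 318.5 FPKM in GsMTx4, 552.3 FPKM in DSS and 216.7 FPKM in Control. In GsMTx4 against DSS, 8 of the 9 markers had fitted differences below 0 and 1 above. For 7 fibroblast markers the sums were 109.8 to 137.0, 129.8 to 288.3 and 126.0 to 145.3 FPKM in the same order of groups, with 3 falls and 1 rise, and for 6 endothelial markers 9.83 to 16.3, 14.6 to 28.4 and 9.08 to 12.9 FPKM, with no fall and 3 rises. The neutrophil marker Il1r2 and the endothelial marker Emcn reached 1 FPKM in the DSS libraries alone, and S100a8 outside DSS in GsMTx4 1 alone. These markers were tested through the group where they were high, so the counts partly follow from the filter.

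The 11 epithelial markers summed to 4955 to 5975 FPKM in GsMTx4, 5315 to 7278 FPKM in DSS and 4963 to 5902 FPKM in Control, with 2 rises and 2 falls in GsMTx4 against DSS and 1 of each in DSS against Control. The 6 smooth muscle markers summed to 524.1 to 690.7, 198.2 to 804.1 and 413.6 to 669.1 FPKM, with no call. The 6 hepatocyte markers summed to 38.2 to 55.8 FPKM in GsMTx4, 3.002 to 7.02 FPKM in DSS and 20.8 to 26.8 FPKM in Control, and 6 rose in GsMTx4 against DSS, 5 rose in GsMTx4 against Control, and Alb and Ttr fell in DSS against Control. Ttr, at 16.8 ± 7.66 FPKM in GsMTx4, 3.43 ± 1.59 FPKM in DSS and 21.5 ± 2.75 FPKM in Control, made up most of the Control sum, where Alb, Apoa1 and Apoa2 averaged under 1 FPKM and Serpina1a and Fgb were listed at 0. Apoa1, Serpina1a and Fgb reached 1 FPKM in the GsMTx4 libraries alone. They were tested only through the group where they were high, so their rises in GsMTx4 partly follow from the filter. No marker was at 0 in all 9 libraries. The part of these cells in the values of the 10 genes was not tested.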

How the data were processed

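The authors deposited 1 table of FPKM values for 35315 genes in 9 libraries. Reads were trimmed with cutadapt, inspected with FastQC and referred to GRCm38, per the submitters' processing notes, while the sources used here name neither the aligner nor the FPKM program. Symbols came from GENCODE M21 (35196 genes matched) and promoters from RefSeq. Sample titles gave the groups and replicate numbers.

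Values were transformed to log2(FPKM + 1), so fold changes of low genes are understated. The 14360 genes that reached 1 FPKM in 3 or more libraries were tested. The 9 libraries entered 1 fit in limma 3.58.1 (R 4.3.3) with a mean per group, 6 residual degrees of freedom and an empirical Bayes trend. Each two-sided p was adjusted (Benjamini-Hochberg) across the tested genes of its comparison, and genes under 0.05 passed whatever their fold. The fit was tested on simulated data.

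Depth was worked out from genes with 1 annotated transcript. In each library, the most frequent value of FPKM times length within a preset window was taken as 1 read pair (tolerance 0.2). The window limited the depths that could be found, and multiples of the step were not examined. The depth is an inference and was 15100000 to 17200000 pairs in GsMTx4, 17200000 to 21500000 in DSS and 19600000 to 21000000 in Control, and precision at low levels follows it. The read pairs given for Fosl1 rest on the same step.

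The 10 genes and the lists were chosen with earlier results of these data known, so list counts are descriptions. Named genes are the 10, all passing genes of a list where at most 5 passed (otherwise the 4 with the smallest p, or the smallest p where none passed), and the 3 genes nearest in pattern to each passing member. Cell type markers were named outside the rule. A gene that the rule names is not reported here. Alternatives were a pseudocount of 0.1, no filter, a mean FPKM of at least 5, TPM, median-of-ratios and quantile scaling, only the compared groups, a replicate block, no trend, and each library left out. Protein sequences and the promoters of Fosl1 and Egr1 were not used here.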

Additional observations from a re-analysis of the deposited data

How the results depend on the processing

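Among single genes, 1346 of the values under alternatives kept their direction and their side of the threshold, 151 lost a call, 5 gained one and none reversed. Counts that moved by over 1.5 times were as follows. Without a filter, GsMTx4 against DSS gave 590 higher and 483 lower genes (956 and 807 with it) and GsMTx4 against Control 12 lower (7 with it). At a mean FPKM of at least 5 there were 579 higher and 992 lower genes in DSS against Control (921 and 1541 otherwise), 495 lower in GsMTx4 against DSS, and 3 higher and 2 lower in GsMTx4 against Control (27 and 7 otherwise), from fewer genes tested. Median-of-ratios scaling gave 949 lower genes in DSS against Control and 3 lower in GsMTx4 against Control, where quantile normalization also gave 3 and a pseudocount of 0.1 gave 2. With only the GsMTx4 and DSS groups in the fit, 327 genes were higher and 260 lower, and 0 of the 10 genes passed. With only the DSS and Control groups, the counts rose, to 985 higher and 1956 lower genes. TPM rescaling left 1 of the 10 lower in GsMTx4 against DSS. The cause of these changes was not tested.

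Leaving out each library gave 393 to 1209 higher and 323 to 787 lower genes in GsMTx4 against DSS, with 0 to 3 of the 10 genes lower. It gave 382 to 1094 higher and 581 to 2007 lower genes in DSS against Control, with 1 to 2 of the 10 higher, and 12 to 70 higher and 1 to 13 lower in GsMTx4 against Control.

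Same-numbered libraries did not deviate together: over 9 pairs the correlation of deviations from the group means ran from -0.233 to 0.1. With the replicate block, 995 genes were lower in DSS against Control, and 553 were higher and 525 lower in GsMTx4 against DSS. In that comparison 2 of the 10 passed under the block, Junb (-0.73, adjusted p = 0.0367 in limma) and Egr1 (-1.02, adjusted p = 0.0194), and Zfp36 did not (-0.59, adjusted p = 0.0544). Depth limits Fosl1 and Fosb, whose lowest libraries hold a few read pairs.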
